A study of Mus musculus with 9 samples.

Results

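Ribosome biogenesis was followed through 38 genes of the nucleolus, chosen by their function, in whole mouse uteri at gestation day (GD) 3.5. A gene was read where the array annotation gave a probe set the name of 1 gene alone, taking the brightest such probe set on average over the 9 arrays, and 37 of the 38 were measured in this way, out of 18193 genes in all. The remaining one, *Mrto4*, had no probe set with its name alone. The 37 genes had 78 probe sets among the 45037 of the table.

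The arrays fell into 3 groups of 3, of control mice, of Mig-6 d/d mice, called the single knockout here, and of mice labelled Mig-6 d/d Erbb2 d/d, the double knockout. Control females carried floxed alleles without Cre, as Mig-6 f/f or as Mig-6 f/f Erbb2 f/f, and which of these each control array held is not given. Single knockout females were Pgr cre/+ Mig-6 f/f, and double knockout females carried Erbb2 f/f in addition to Pgr cre/+ Mig-6 f/f. All were of mixed C57BL/6 and 129P2/OlaHsd background and had been mated with C57BL/6 males, with the morning of the plug as GD 0.5. By the methods the mice were 8 to 12 weeks old, whereas a label states 2 weeks of age for every array. Cre driven from the *Pgr* locus acts in the cells that express the progesterone receptor, in epithelium, stroma and muscle, and the heterozygous *Pgr* allele is present in both knockout groups and in no control. Each RNA was a pool of several mice, and no source used here says if arrays of 1 genotype were independent pools, so p-values may reflect technical spread alone.

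The nucleolus is the part of the nucleus where RNA polymerase I transcribes the ribosomal RNA genes. Small nucleolar ribonucleoprotein particles (snoRNPs) modify the transcript, guided by their RNA to the sites of methylation (box C/D) or of pseudouridine formation (box H/ACA), and large sets of assembly factors then cleave it and fit it with ribosomal proteins into the small and the large subunit. Output of the pathway follows growth signals, among them ERBB receptors, ERK and MYC, and it is high in cells that prepare to divide. In the uterus at the time measured here, the luminal epithelium normally stops dividing under progesterone while the stroma begins to divide.

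Values are linear intensities after robust multi-array averaging by the authors, and differences are log2 fold changes from limma with the 3 groups in 1 model. To be called, a gene had to change over 1.5-fold with an adjusted p under 0.05 (Benjamini-Hochberg, all probe sets). Array medians lay between 7.87 and 8.24. *Errfi1*, the gene of MIG-6, read 286 to 564 in control and 15.1, 16.0 and 255 in the single knockout, and 29.8 to 76.1 in the double knockout, so the library labelled single knockout replicate 3 lay near the lowest control. *Erbb2* read 29.4 to 45.7 in control, 39.5 to 46.6 in the single knockout and 9.88 to 18.5 in the double knockout. The medians of the members and the calls of *Pno1* are given with and without that library.

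Of the 37 genes, 34 were higher in the single knockout than in control and 3 were lower. Their median log2 fold change was 0.21, with a range of -0.08 to 0.77, against a median of -0.03 and 44.8% higher over all 18193 genes. For 23 of the 37 (62.2%) the 95% interval of the difference lay within 1.5-fold, against 67.1% of all genes. A single gene, *Pno1*, was called increased, against 2.55% of all genes, and 0 were called decreased, against 1.81%. At the adjusted p alone, whatever the fold, 2 were higher (*Pno1* and *Bop1*), against 3.00% of all genes, and at an unadjusted p under 0.05, 10 were higher and 0 lower, against 11.3% higher and 12.7% lower of all genes. In 14 of the 37 (37.8%) each single knockout array read above each control array, against 11.6% of all genes, and in 0 each read below, against 14.1%. Without the library labelled single knockout replicate 3 the median was 0.22 and *Pno1* alone was called.

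**Figure D1:**
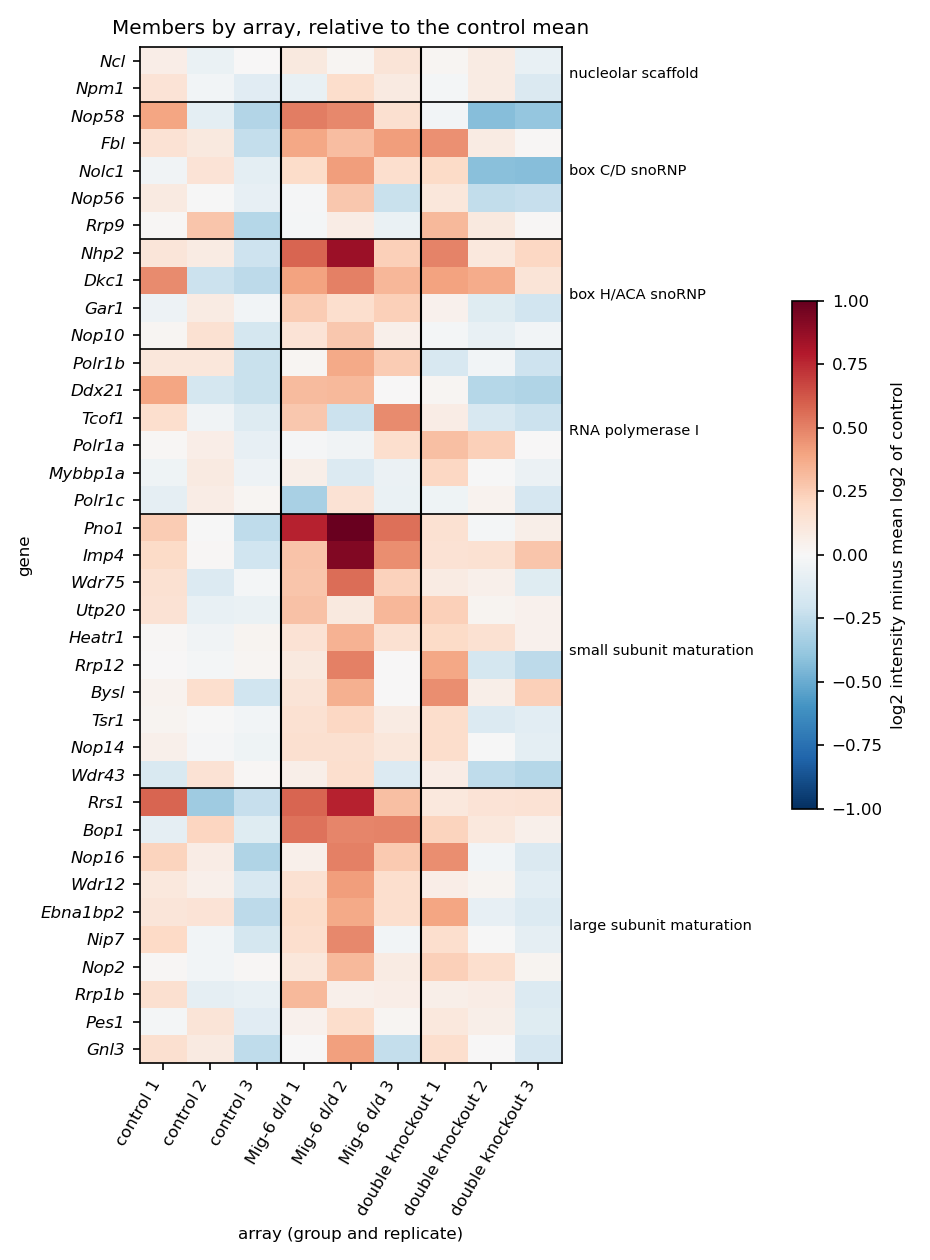
Heat map of the 37 measured genes by array, with genes in rows grouped by role and arrays in columns grouped by genotype, coloured by log2 intensity minus the mean log2 intensity of the 3 control arrays (blue lower, red higher, colours saturating at -1 and 1). Red is most frequent in the single knockout columns and strongest in replicate 2, and control replicate 1 and double knockout replicate 1 are redder than the other arrays of their groups.

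In the double knockout against control, 22 of the 37 (59.5%) were higher and 15 lower, with a median log2 fold change of 0.02 and a range of -0.28 to 0.30. Over all genes 52.7% were higher and the median was 0.01. None was called by limma, at 0 increased and 0 decreased, where 0.214% and 0.198% of all genes were called, and 0 reached an unadjusted p under 0.05, against 4.25% higher and 3.72% lower of all genes. The median turned to -0.037 without control replicate 3 and to -0.035 without double knockout replicate 1, and was 0.077 without control replicate 1 and 0.083 without double knockout replicate 3. For 32 of the 37 (86.5%) the 95% interval of the difference lay within 1.5-fold in both directions, against 79.9% of all genes. Each double knockout array read above each control array in 2 of the 37, *Heatr1* and *Nop2*, against 6.52% of all genes, and below in 0, against 5.32%.

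In the double knockout against the single knockout, 32 of the 37 were lower and 5 (13.5%) higher, with a median log2 fold change of -0.18 and a range of -0.70 to 0.15. Over all genes 56.1% were higher and the median was 0.03. *Pno1* alone was called decreased, against 3.76% of all genes, and 0 were called increased, against 3.73%. At an unadjusted p under 0.05, 10 were lower and 0 higher, against 11.8% lower and 14.7% higher of all genes. Each double knockout array read below each single knockout array in 10 of the 37 (27.0%), against 14.2% of all genes, and above in 0, against 18.6%. Without the library labelled single knockout replicate 3 the median was -0.21 and 1 member was called decreased. The 3 comparisons share arrays in pairs, the one with the single knockout on top and the one with it below using the same single knockout arrays, so their directions are not independent of each other.

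**Figure D2:**
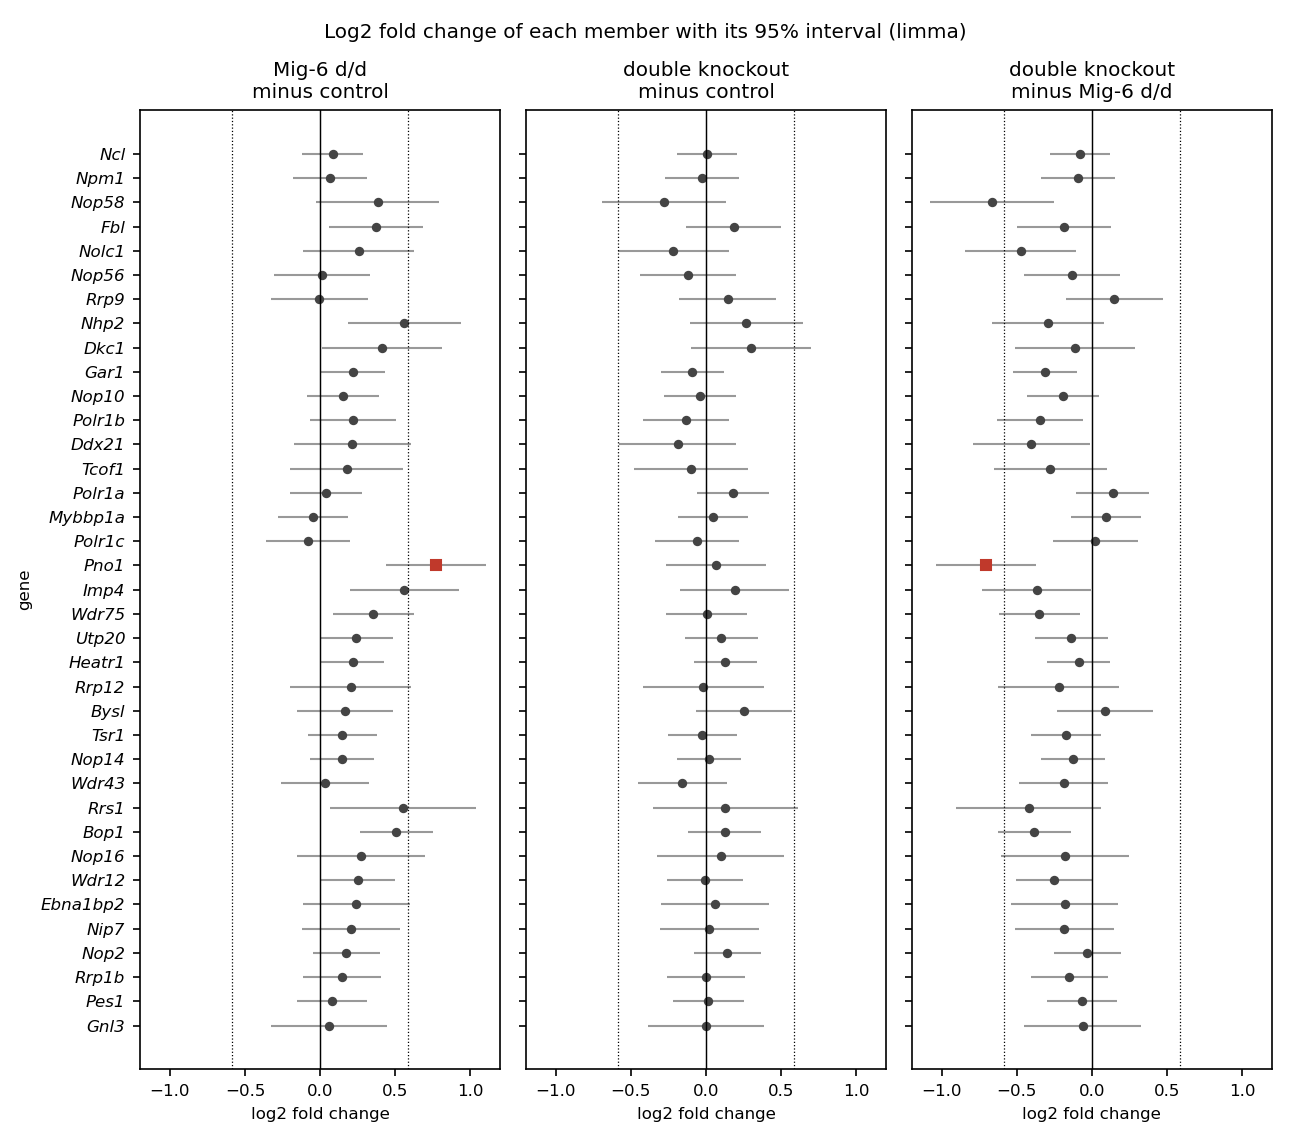
Log2 fold change of each of the 37 genes (points) with its 95% interval from limma (lines) in the 3 comparisons, with red squares for a called gene and dotted lines at 1.5-fold. Most points lie right of 0 for single knockout minus control, around 0 for double knockout minus control, and left of 0 for double knockout minus single knockout, and *Pno1* is the one red square in the first and the last panel.

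Among the 10 measured factors of the small subunit, all 10 were higher in the single knockout than in control, with a median log2 fold change of 0.21, and 9 were lower in the double knockout than in the single knockout, with a median of -0.18. *Pno1* encodes a KH-domain protein that accompanies the cleavage of the small subunit's ribosomal RNA precursor. It read 111, 92.7 and 77.8 in control, 158, 185 and 136 in the single knockout, and 103, 91.4 and 96.8 in the double knockout. The single knockout arrays lay above all other arrays, and control and double knockout overlapped. The log2 fold change was 0.77 (SE 0.15, limma adjusted p = 0.0274) in the single knockout against control, -0.70 (SE 0.15, limma adjusted p = 0.0221) in the double knockout against the single knockout, and 0.06 (95% interval -0.27 to 0.40) in the double knockout against control.

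The call of *Pno1* lay near the threshold. In the single knockout against control the adjusted p from limma was 0.0820 without control replicate 2, 0.0526 without control replicate 3, 0.0840 without single knockout replicate 1 and 0.0632 without single knockout replicate 2, with log2 fold changes of 0.77, 0.64, 0.77 and 0.66. Without the library labelled single knockout replicate 3 it was 0.88 with an adjusted p of 0.0447. The decrease in the double knockout had an adjusted p of 0.0713 without single knockout replicate 1, 0.0645 without replicate 2 of that group, and 0.0582, 0.0807 and 0.0604 without double knockout replicates 1, 2 and 3, and 0.0296 without the library labelled single knockout replicate 3.

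*Imp4*, a component of the complex that carries U3 RNA to the first cleavages of the transcript, read 61.6, 54.3 and 47.0 in control, 65.7, 103 and 74.6 in the single knockout, and 59.7, 60.1 and 65.5 in the double knockout. All single knockout arrays lay above control and above the double knockout, the margin over the highest double knockout array being 65.7 against 65.5. Against control the single knockout differed by 0.56 on the log2 scale (SE 0.16, limma adjusted p = 0.0936). The other 2 probe sets of *Imp4* gave 0.05, at readings of 37.8 to 49.8, and 0.31, at readings of 5.51 to 8.52, and the mean over all 3 was 0.31. Of the other 8 factors, at the brightest probe set, *Wdr75* had the largest log2 fold change at 0.35. *Wdr43*, a subunit of the same early processing complex as *Wdr75*, had the smallest at 0.03. A second probe set of *Wdr43*, nearly as bright, gave 0.31 (limma adjusted p = 0.190). It read 102 to 122 in control and 126 to 162 in the single knockout. For *Wdr75*, *Heatr1*, *Nop14* and *Tsr1* the single knockout arrays also lay above control at the brightest probe set.

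The 250 bases before the start of transcription are shown for the 3 measured genes with the largest log2 fold changes in the single knockout that have an entry in the promoter table (RefSeq, GRCm38.p6, written 5′ to 3′ on the strand of the gene). They let the reader compare the sequence of *Pno1*, the one called gene, with *Nhp2* of the H/ACA particle and *Imp4*. Capitals mark the CCAAT box (CCAAT, or ATTGG on the other strand) and the E-box CACGTG, which the MYC and MAX proteins are known to bind and which reads the same on both strands. The entries lie at chr11:17211590-17211839 on the minus strand for *Pno1*, at chr11:51619523-51619772 on the plus strand for *Nhp2*, and at chr1:34439579-34439828 on the plus strand for *Imp4*.
Pno1: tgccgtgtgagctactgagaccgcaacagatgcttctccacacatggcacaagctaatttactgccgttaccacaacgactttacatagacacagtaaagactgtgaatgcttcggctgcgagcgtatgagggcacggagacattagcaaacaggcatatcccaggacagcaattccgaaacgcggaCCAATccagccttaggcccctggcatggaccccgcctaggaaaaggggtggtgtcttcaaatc
Nhp2: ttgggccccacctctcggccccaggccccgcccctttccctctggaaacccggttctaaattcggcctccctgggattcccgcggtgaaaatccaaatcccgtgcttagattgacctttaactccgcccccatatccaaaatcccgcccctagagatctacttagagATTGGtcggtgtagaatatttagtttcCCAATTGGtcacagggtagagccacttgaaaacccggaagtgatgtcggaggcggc
Imp4: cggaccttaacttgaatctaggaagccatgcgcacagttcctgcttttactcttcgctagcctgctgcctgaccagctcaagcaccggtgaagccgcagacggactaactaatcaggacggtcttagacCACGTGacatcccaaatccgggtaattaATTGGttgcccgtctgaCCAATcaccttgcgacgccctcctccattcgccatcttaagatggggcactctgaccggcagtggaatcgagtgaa

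*Pno1* held 1 CCAAT box and 0 E-boxes, *Nhp2* 3 CCAAT boxes and 0 E-boxes with 2 of its boxes overlapping on opposite strands, and *Imp4* 2 CCAAT boxes and 1 E-box. The E-box was present in 2 of the 31 members with an entry (6.45%, *Imp4* and *Nop2*), against 8.73% of 14452 measured genes with an entry and 6.02% of all 32851 promoters in the table. The CCAAT box was present in 10 of 31 (32.3%, against 39.4% of measured genes), the GC box (GGGCGG or CCGCCC) in 19 of 31 (61.3%, against 53.4%), and the ETS motif (CCGGAAG or CTTCCGG) in 7 of 31 (22.6%, against 11.8%), all over the same length and on both strands, and none of these motifs contains another. *Bop1*, *Fbl*, *Tcof1*, *Rrs1*, *Npm1* and *Rrp12* had no entry.

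All 10 measured factors of the large subunit were higher in the single knockout than in control, with a median log2 fold change of 0.22, and all 10 were lower in the double knockout than in the single knockout, with a median of -0.18. *Bop1* forms with *Pes1* and *Wdr12* a complex that is needed to process the precursor of the large subunit's RNA. It read 45.9, 56.7 and 44.8 in control, 71.0, 68.6 and 68.8 in the single knockout, and 57.1, 52.4 and 50.6 in the double knockout. The single knockout arrays lay close together and above every other array. Its log2 fold change of 0.51 (SE 0.11) against control had a limma adjusted p of 0.0371, but at 1.42-fold it did not reach the fold limit, and without control replicate 2 it was 0.61 with an adjusted p of 0.0374 and was called. Against the single knockout the double knockout differed by -0.38 (SE 0.11, limma adjusted p = 0.0673). A second, dimmer probe set of *Bop1*, with readings of 9.26 to 12.7, differed by -0.14 on the log2 scale in the single knockout against control, and over both probe sets the mean was 0.18 (limma adjusted p = 0.262) against control and -0.15 between the knockouts.

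The partners of *Bop1* had smaller log2 fold changes. *Wdr12* read 0.25 higher on the log2 scale in the single knockout than in control and *Pes1* 0.08 higher, neither past the test. *Rrs1*, which brings the 5S ribonucleoprotein into the large subunit, read 459, 240 and 262 in control, 458, 522 and 379 in the single knockout, and 331, 338 and 339 in the double knockout. At this probe set control replicate 1 read as high as the single knockout arrays, and *Rrs1* had the widest spread of all members among controls. The other, dimmer probe set of *Rrs1* read 144 to 238 in control and 242 to 270 in the single knockout, without overlap. There the log2 fold change was 0.52 (limma adjusted p = 0.120). At the brightest probe set the log2 fold change of *Rrs1* against control was 0.55 (SE 0.22, limma adjusted p = 0.211), and 0.84 with an adjusted p of 0.0173 without control replicate 1. *Nop16*, *Ebna1bp2*, *Nip7*, *Nop2*, *Rrp1b* and *Gnl3*, the last a nucleolar GTPase of dividing cells, had log2 fold changes of 0.06 to 0.27, none past the test.

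The 4 proteins of the H/ACA particle were all higher in the single knockout, with the highest median log2 fold change of the 6 roles, 0.32, and all 4 were lower in the double knockout than in the single knockout, with a median of -0.24. *Nhp2*, a core protein that binds the guide RNA, read 530, 516 and 422 in control, 728, 883 and 576 in the single knockout, and 685, 525 and 562 in the double knockout. The single knockout arrays lay above control, and the double knockout spanned the gap between them. Its log2 fold change was 0.56 (SE 0.17, limma adjusted p = 0.103) in the single knockout and 0.27 (SE 0.17, limma adjusted p = 0.798) in the double knockout, each against control.

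*Gar1*, which helps to release the modified RNA, read 266, 292 and 271 in control, 329, 311 and 325 in the single knockout, and 285, 253 and 242 in the double knockout. Groups were narrow, and the single knockout lay above both others. The log2 fold change was 0.22 (SE 0.10, limma adjusted p = 0.254) against control and the double knockout lay -0.31 (SE 0.10, limma adjusted p = 0.0847) from the single knockout. *Dkc1*, the pseudouridine synthase itself, differed by 0.41 on the log2 scale in the single knockout and 0.30 in the double knockout against control, the largest of all members in the latter comparison, and *Nop10* had 0.15 and -0.04. The other probe sets of *Dkc1* disagreed in the double knockout against control. One gave -0.32, at readings of 118 to 215, and the other 0.36, at readings of 34.9 to 112. In the single knockout against control they gave 0.23 and 0.69.

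Of the 5 genes of the C/D particle, 4 were higher in the single knockout, with a median log2 fold change of 0.26, and 4 were lower in the double knockout than in the single knockout, with a median of -0.19. *Fbl*, the fibrillarin that methylates ribosomal RNA, read 713, 690 and 550 in control, 844, 802 and 862 in the single knockout, and 890, 684 and 651 in the double knockout. The single knockout lay above control, and double knockout replicate 1 was the highest of all 9 arrays. The log2 fold change was 0.37 (SE 0.14, limma adjusted p = 0.193) in the single knockout against control. A second, dimmer probe set of *Fbl* gave 0.54 (limma adjusted p = 0.116). There single knockout replicate 1, at 496, was the highest array, with double knockout replicate 1 at 484.

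*Nop58*, which holds the C/D guide RNA, read 368, 261 and 228 in control, 398, 390 and 313 in the single knockout, and 275, 208 and 214 in the double knockout. Control replicate 1 lay among the single knockout arrays, and each double knockout array lay below each single knockout array. The double knockout differed from the single knockout by -0.66 (SE 0.18, limma adjusted p = 0.0613), over 1.5-fold and just outside the threshold. Leaving out 1 array, the limma adjusted p ran from 0.0265 to 0.187, and *Nop58* stayed uncalled for 7 of 9 arrays left out. It was called without control replicate 1 (0.0265) or control replicate 3 (0.0439). Those arrays are outside this comparison, and leaving them out did not change the log2 fold change. *Nolc1*, a nucleolar phosphoprotein that binds both kinds of particle, had the next largest decrease at -0.47, with arrays that overlapped. *Nop56*, the partner of *Nop58*, and *Rrp9*, the protein specific to the U3 particle, had log2 fold changes of 0.01 and -0.0045 in the single knockout against control.

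Of the 6 genes of the polymerase I group, 4 were higher in the single knockout than in control, with a median log2 fold change of 0.11. For all 6 the arrays of these groups overlapped at the brightest probe set. *Polr1b*, the second largest subunit of the enzyme, read 36.1, 36.1 and 28.7 in control, 33.9, 43.4 and 39.9 in the single knockout, and 29.9, 32.8 and 29.0 in the double knockout. The single knockout overlapped with control and lay above the double knockout. The log2 fold change was 0.22 (SE 0.13, limma adjusted p = 0.435) against control, and the double knockout lay -0.35 (SE 0.13, limma adjusted p = 0.153) from the single knockout.

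*Ddx21*, an RNA helicase of polymerase I transcription and of RNA processing, read 160, 108 and 104 in control, 152, 152 and 122 in the single knockout, and 123, 99.7 and 98.6 in the double knockout. Replicate 1 of control was the highest of all arrays. Its log2 fold change against control was 0.21 (SE 0.17, limma adjusted p = 0.595). A second, dimmer probe set of *Ddx21* read 30.7 to 33.8 in control and 41.4 to 44.5 in the single knockout. It read 27.6 to 33.2 in the double knockout. There the single knockout lay above both others, at 0.44 against control (limma adjusted p = 0.0421), short of 1.5-fold. The double knockout lay -0.50 from the single knockout (limma adjusted p = 0.0176). Over both probe sets the mean was 0.33 against control (limma adjusted p = 0.0999). *Polr1a*, the largest subunit, *Polr1c*, a subunit shared with polymerase III, *Tcof1*, a cofactor at the ribosomal RNA genes, and *Mybbp1a*, a nucleolar regulator, had log2 fold changes of -0.08 to 0.18, and *Polr1c* and *Mybbp1a* were 2 of the 3 members below 0 in the single knockout, the other being *Rrp9*.

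The scaffold proteins of the nucleolus had the smallest median log2 fold change of the 6 roles in the single knockout against control, 0.07. *Ncl*, nucleolin, read 1210, 1104 and 1164 in control, 1242, 1174 and 1266 in the single knockout, and 1172, 1225 and 1098 in the double knockout. *Npm1*, nucleophosmin, read 2418, 2164 and 2035 in control, 2085, 2488 and 2348 in the single knockout, and 2175, 2324 and 1985 in the double knockout. All groups overlapped for both. The log2 fold changes in the single knockout against control were 0.08 (95% interval -0.12 to 0.28) and 0.06 (95% interval -0.18 to 0.31), both within 1.5-fold.

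**Figure D3:**
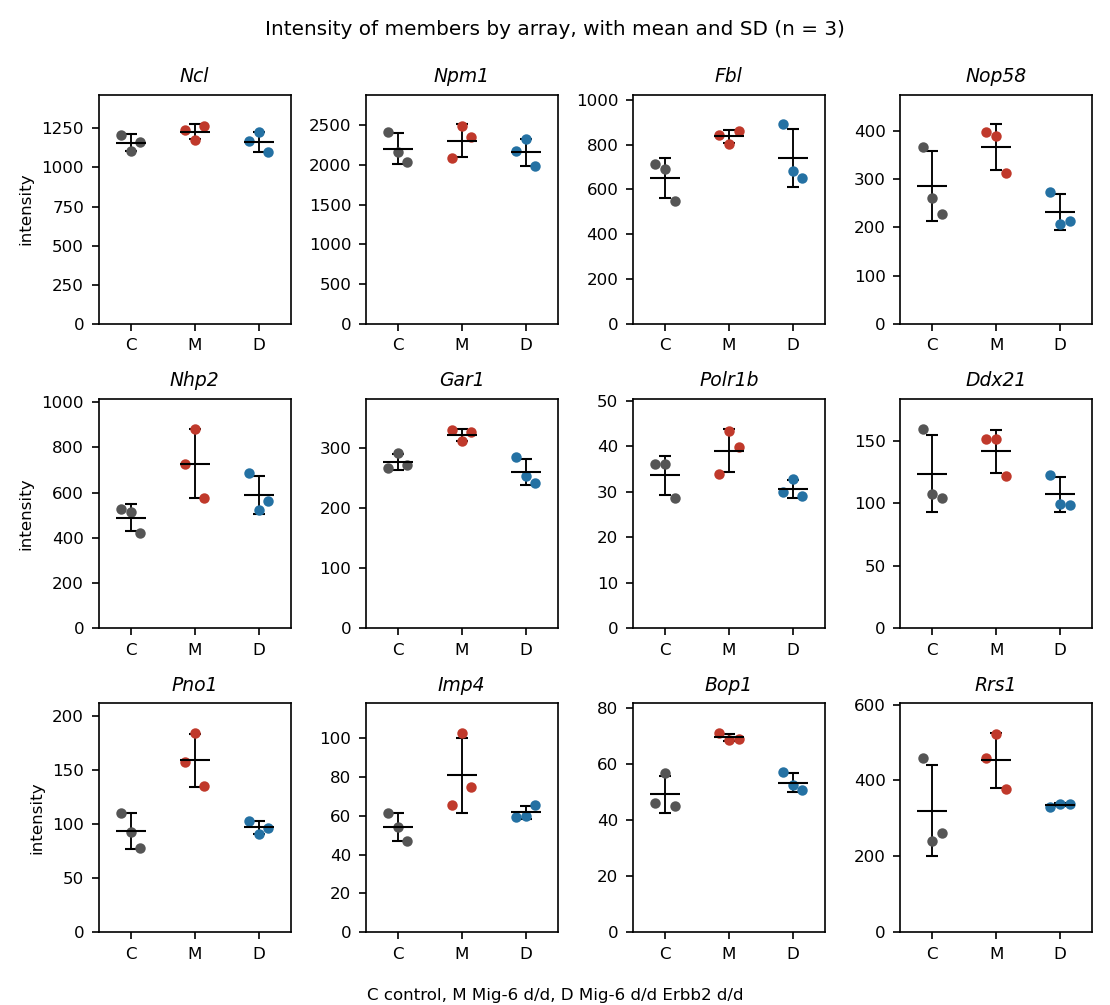
Linear intensity of the 12 genes described array by array (points, 3 arrays per group), with mean (bar) and SD (whiskers) in control (C), single knockout (M) and double knockout (D), each axis starting at 0. *Pno1*, *Imp4*, *Bop1* and *Gar1* have all M points above all C and D points, whereas *Ncl* and *Npm1* overlap throughout.

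Arrays of 1 group differed across the members together. The median over the 37 genes of log2 intensity minus the control mean was 0.11, 0.01 and -0.12 in control replicates 1 to 3, 0.15, 0.32 and 0.16 in the single knockout, and 0.16, 0.03 and -0.11 in the double knockout. Double knockout replicate 1 thus lay as high as 2 of the single knockout arrays, and the groups overlapped. Control replicate 1 was the highest control for 23 members, single knockout replicate 2 the highest of its group for 27, and double knockout replicate 1 for 30. The SD of log2 intensity between arrays of a group had a median over members of 0.15, 0.15 and 0.14 in control, single and double knockout, against 0.16, 0.13 and 0.13 over all genes.

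The cell types of the uterus differed between the groups as well, and in whole tissue a change in the share of a cell type cannot be told apart from a change in RNA per cell. Of 20 epithelial markers 19 were measured, and all 19 were higher in the single knockout than in control, with a median log2 fold change of 1.38 and 10 called increased, and their summed intensity was 4853 to 9273 in control, 12560 to 18916 in the single knockout and 4126 to 6796 in the double knockout. All 17 stromal markers were lower (median -0.54, 3 called decreased, summed 25895 to 30298 in control, 21571 to 25507 in the single knockout and 29177 to 30296 in the double knockout), as were all 10 of smooth muscle (median -0.62) and all 10 of endothelium (median -0.73). *Krt8* of epithelium read 418 to 2230 over the 9 arrays, *Vim* of stroma 1463 to 2839 and *Acta2* of smooth muscle 4635 to 6941, so markers of the labelled tissue were present on each. Of 13 measured cell division genes, 12 were higher in the single knockout, with a median of 0.68 and 5 called increased. Several of them, among them *Mcm2*, *Mcm6* and *Pcna*, were listed by the paper as changed on these same arrays. The direction of this list is thus not independent of those results. Over all genes 44.8% were higher in the single knockout than in control, with 2.55% called increased and 1.81% called decreased. The part of the epithelial, stromal and division genes in the shift of the 37 members was not tested.

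Within groups the arrays ranked differently by the members and by the epithelial markers. The epithelial median, on the same scale, was -0.11, -0.42 and 0.63 in control replicates 1 to 3, 1.30, 1.11 and 1.48 in the single knockout, and -0.54, -0.23 and 0.09 in the double knockout. The highest epithelial array of the controls and of the double knockout, replicate 3 in each, had the lowest median of the members, and the lowest epithelial array of the single knockout and of the double knockout had the highest. The median of the division genes was 0.27, -0.10 and -0.15 in control, 0.53, 0.61 and 0.67 in the single knockout and 0.03, 0.25 and -0.11 in the double knockout. That of the stromal markers was 0.08, 0.08 and -0.12 in control, -0.53, -0.45 and -0.58 in the single knockout and 0.08, 0.04 and -0.12 in the double knockout. Stroma and members shared the lowest array in control and double knockout, and the highest in both knockouts. Any link of these ranks to the members was not tested.

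**Figure D4:**
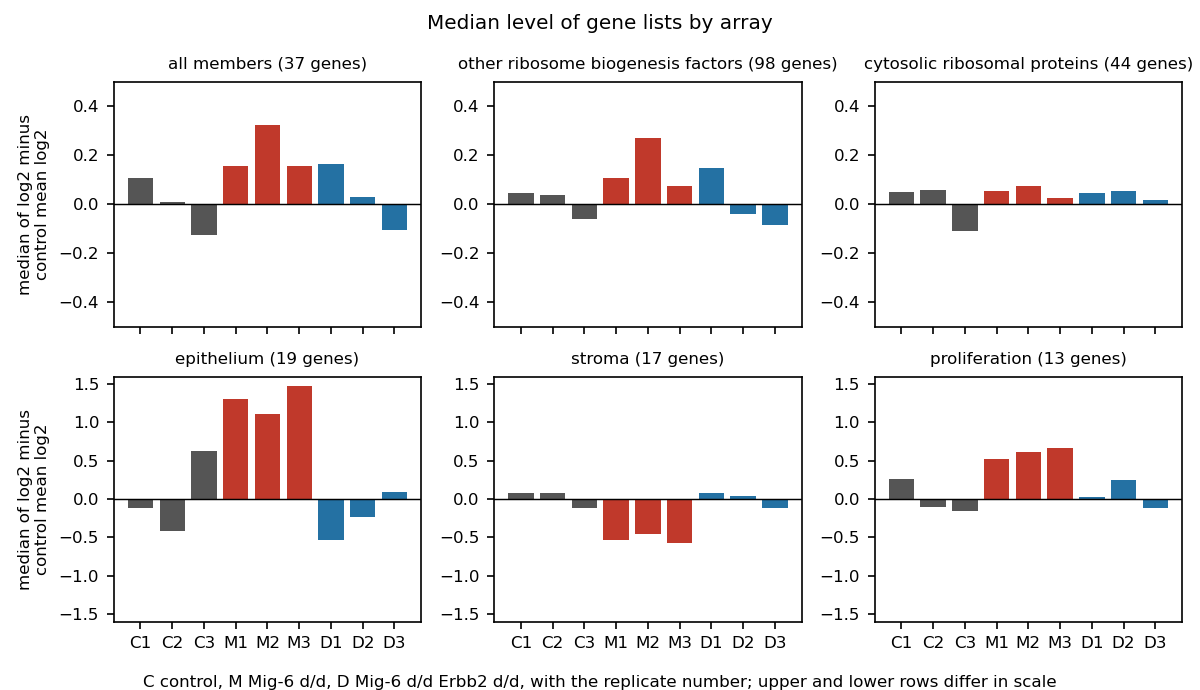
Median over the genes of a list of log2 intensity minus the control mean (bars), by array, for the 37 members, 98 other ribosome biogenesis factors, 44 ribosomal proteins, and markers of epithelium, stroma and cell division, where the upper row runs from -0.5 to 0.5 and the lower from -1.6 to 1.6. Members lay between 0.15 and 0.32 in the single knockout, ribosomal proteins at most 0.07, and epithelial markers between 1.11 and 1.48.

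Beyond the 37 genes, 98 other ribosome biogenesis factors were read in the same way. In the single knockout against control 74 of the 98 (75.5%) were higher, against 44.8% of all genes, with a median log2 fold change of 0.16. In 26 (26.5%) each single knockout array read above each control array, against the 11.6% of all genes. The list had 0 called in either direction, and 2 passed the adjusted p alone, the small subunit factors *Wdr36*, with a log2 fold change of 0.45 (SE 0.10, limma adjusted p = 0.0407), and *Dcaf13*, with 0.53 (SE 0.13, limma adjusted p = 0.0486). *Wdr36* read 58.0, 53.7 and 47.7 in control, 70.0, 71.7 and 74.6 in the single knockout and 57.1, 57.9 and 53.0 in the double knockout, with each single knockout array above all others. In the double knockout against the single knockout 71 of the 98 were lower (median -0.14), and *Nol8*, a nucleolar protein, was called decreased at -0.83 (limma adjusted p = 0.0415).

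*Noc3l*, a factor of early large subunit particles, read 23.6, 17.3 and 21.3 in control, 30.3, 31.2 and 27.4 in the single knockout, and 42.9, 35.5 and 35.7 in the double knockout. It was the 1 factor of the 98 called in the double knockout against control, at 0.88 (SE 0.13, limma adjusted p = 0.0218), and its order of groups differed from that of *Pno1*, with the double knockout highest. Leaving out 1 array, its adjusted p ran from 0.0257 to 0.0987 and the call held for 3 of 9 arrays left out, and that of *Nol8* ran from 0.0198 to 0.138 with 2 of 9. Averaged over the probe sets of each gene, the log2 fold change was 0.38 (limma adjusted p = 0.263) for *Noc3l* and -0.46 (limma adjusted p = 0.0728) for *Nol8*, and neither was called.

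Ribosomal proteins, the parts that these factors assemble, were measured for 44 of 80 genes. In the single knockout against control 31 (70.5%) were higher, against 44.8% of all genes. Their median log2 fold change was 0.05, against -0.03 over all genes. By limma 0 were called, against 2.55% increased and 1.81% decreased of all genes. At an unadjusted p under 0.05 there were 0, against 11.3% higher and 12.7% lower of all genes. *Rplp0*, a protein of the stalk, read 5190, 4213 and 3838 in control, 5198, 5120 and 4863 in the single knockout and 5107, 5170 and 5092 in the double knockout, so that control replicates 2 and 3 lay below the rest. *Rps25* was called increased in the double knockout against both other groups, at 133 to 167 against 57.6 to 79.2 in control and 65.9 to 104 in the single knockout, but without 1 array the adjusted p against control ran up to 0.175, with the call held for 1 of 9. The probe set of *Rps25* read far below that of *Rplp0* on every array. Whether it reports the main transcript of *Rps25* was not tested. Of 10 measured subunits of RNA polymerase III, which makes 5S and transfer RNA, 6 were higher in the single knockout, with a median of 0.07 and *Crcp* past the adjusted p alone (0.55, SE 0.11, limma adjusted p = 0.0333). *Polr3d* read 37.2, 41.0 and 31.4 in control, 30.9, 34.0 and 29.7 in the single knockout and 53.9, 50.8 and 61.2 in the double knockout, and it was called increased in the double knockout against the single knockout at 0.81 (limma adjusted p = 0.0061), with the call held for all 9 arrays left out.

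The MYC network holds the transcription factors MYC, MYCN and MYCL, their partner MAX, the MXD and MNT proteins that compete for MAX, and the MAX-like protein MLX, which pairs with some of the latter, and MYC is known to raise the transcription of ribosome biogenesis genes. All 12 genes were measured, and in the single knockout against control 5 were higher and 7 lower, with 1 called increased. *Myc* read 179, 182 and 135 in control, 122, 129 and 117 in the single knockout, and 166, 138 and 97.9 in the double knockout. Each single knockout array lay below each control array, although the log2 fold change of -0.42 (SE 0.18, limma adjusted p = 0.264) did not pass the test.

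*Mycn* read 38.3, 15.4 and 52.0 in control, 162, 94.9 and 139 in the single knockout, and 11.9, 15.4 and 53.6 in the double knockout. The single knockout arrays were apart from all others. Its log2 fold change was 2.04 (SE 0.56, limma adjusted p = 0.0790) in the single knockout against control, and it was called decreased in the double knockout against the single knockout at -2.58 (SE 0.56, limma adjusted p = 0.0240). *Mycl* was called decreased in the same comparison, at -1.19 (limma adjusted p = 0.0135), with 46.7, 34.9 and 34.3 in the single knockout and 15.2, 17.9 and 17.4 in the double knockout. The call held for 5 of 9 arrays left out for *Mycn* (adjusted p up to 0.0921) and 7 of 9 for *Mycl* (up to 0.0576). Averaged over the 3 probe sets of each gene, *Mycn* differed by 0.75 in the single knockout against control and by -0.95 (limma adjusted p = 0.0290) between the knockouts, still called, and *Mycl* by -0.42 (limma adjusted p = 0.0214), short of 1.5-fold.

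*Max* read 63.1, 49.6 and 56.9 in control, 92.8, 80.6 and 84.3 in the single knockout, and 75.5, 62.1 and 79.4 in the double knockout, and was the 1 gene of the network called increased in the single knockout, at 0.61 (SE 0.13, limma adjusted p = 0.0342). That call held when control replicate 1 or double knockout replicate 2 or 3 was left out and not for the other 6 arrays, where the adjusted p reached 0.111. *Mxd4*, which pairs with MAX and represses, read 250, 261 and 264 in control, 183, 183 and 198 in the single knockout and 256, 247 and 267 in the double knockout. Its groups were narrow and the single knockout lay below both others, with a log2 fold change of -0.46 (SE 0.09, limma adjusted p = 0.0241) that did not reach 1.5-fold, where 2.47% of all genes were lower at the adjusted p alone. *Mxd3* was called increased in the double knockout against the single knockout, at 0.62 (limma adjusted p = 0.0468), with the call held for 3 of 9 arrays left out, and it was not called at a mean over its probe sets of 0.42 (limma adjusted p = 0.105). Any part of these genes in the levels of the 37 members was not tested.

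**Figure D5:**
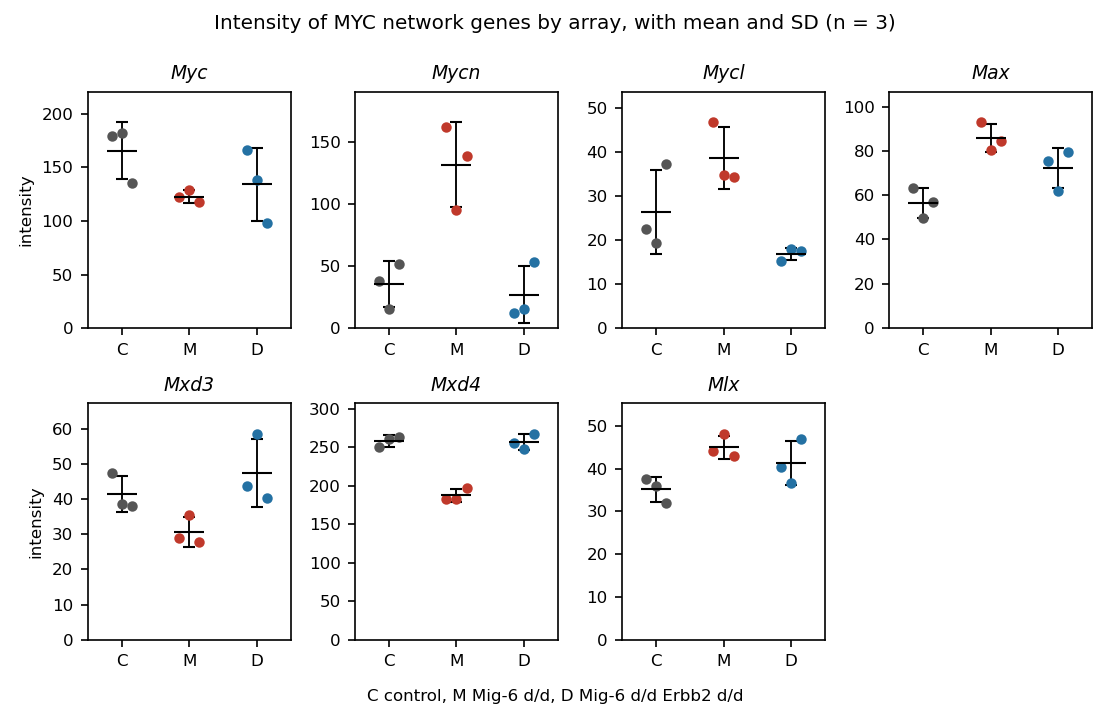
Linear intensity of 7 genes of the MYC network by array (points), with mean (bar) and SD (whiskers) of 3 arrays in control (C), single knockout (M) and double knockout (D), each axis starting at 0. *Mycn* and *Max* have all M points above the C and D points, and *Mxd4* has all M points below them.

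The other probe sets of the members gave a weaker shift. Of 41 further probe sets of 27 genes, 27 were higher in the single knockout than in control, with a median log2 fold change of 0.05, and of the 31 above the median intensity, 24 were higher, with a median of 0.15. None of the 41 was called in the single knockout against control or in the double knockout against the single knockout (0 in limma).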

How the data were processed

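RNA was pooled from uteri per genotype and hybridized to Affymetrix mouse arrays. The authors deposited 1 linear intensity per probe set and array, made by robust multi-array averaging (RMA) with quantile normalization in Bioconductor, whose version and any genome build are not given in the sources used here. Log2 values were computed here. Detection calls and scanner output were not used here, which leaves signal over background unjudged, and 3 arrays per group limit the precision. Of 45037 probe sets, 34945 had 1 gene in the platform annotation, 932 had several and 9160 were unnamed here. Groups followed the array titles.

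The 3 groups were fitted in 1 model with limma 3.58.1 in R 4.3.3 (lmFit, eBayes), with 3 comparisons and adjustment over all probe sets. On simulated data for Mig-6 d/d against control over 45037 probe sets, 0% of changes of 1.2-fold, 34% of 1.5-fold and 88% of 2-fold were called, with 8 false calls. The median change of the members, 1.15-fold, was smaller than each of these fold sizes. The simulation changed far fewer probe sets than the 772 increased and 493 decreased that were called in the data for this comparison. Adjustment was therefore stricter in the simulation, and its rates do not carry over directly to the members. Values by array were given for called members, *Ncl*, *Npm1* and the 2 members with the smallest p per role, and for up to 4 genes of each further list, *Myc* and, chosen after their values were seen, called genes of those lists. *Krt8*, *Vim* and *Acta2* were also chosen after their values were seen. Members and lists were chosen with earlier results of these data known. Further marker lists (mesothelium, ovary and oviduct, gland, adipocytes, erythroid cells, leukocytes, neutrophils) had 0 genes called increased and 1 called decreased, a leukocyte gene, in Mig-6 d/d against control. The 23 alternatives covered filters, normalization, variance model, arrays, fold limits, tests and probe sets. What is called the methods' t-test below was a two-sided t-test with equal variances on log2 values. The paper's array methods do not name the test of their comparison, and its statistics section gives an unpaired t-test for 2 groups.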

Additional observations from a re-analysis of the deposited data

How the results depend on the processing

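The median log2 fold change of the members stayed between 0.12 and 0.24 in the single knockout against control and between -0.27 and -0.10 in the double knockout against the single knockout under all alternatives that gave one, and 32 to 36 members were higher in the former. Calls depended on the settings. Members increased in the single knockout against control numbered 0 with only the 6 arrays compared and with the methods' t-test after Benjamini-Hochberg adjustment, 2 with no fold limit or over 1.2-fold, and 0 to 3 with 1 array left out, the 3 being *Dkc1*, *Pno1* and *Rrs1* without control replicate 1, and 0 without control replicate 3 or single knockout replicate 1 or 2. Members decreased in the double knockout against the single knockout numbered 2 (*Nop58* beside *Pno1*) with dim probe sets left out, array weights, a variance with trend and robust fit, only the 6 arrays compared, 1 probe set per gene tested, a mean over probe sets of a gene and the methods' t-test at its unadjusted threshold, 0 with that test after Benjamini-Hochberg adjustment, and 0 to 2 with 1 array left out. Members higher at any size numbered 14 to 27 in the double knockout against control with 1 array left out, 14 without double knockout replicate 1, and in the double knockout against the single knockout 8 with a mean over probe sets of a gene and 4 to 8 with 1 array left out, 8 without double knockout replicate 3. The log2 fold change turned for *Pno1* in the double knockout against control (-0.063 without control replicate 3, in a range of -0.063 to 0.19 with 1 array left out) and in the single knockout against control for *Rps25* (-0.042 without single knockout replicate 2, in a range of -0.042 to 0.28) and, with a mean over probe sets of a gene, for *Polr3f* (0.034) and *Rpl22* (-0.00385), none of them called. Among genes of the further lists, the calls of *Max* and *Noc3l* were lost with only the 6 arrays compared (adjusted p = 0.0589 and 0.0853), as was that of *Mxd3* (0.0504, and 0.0609 with arrays centred on the median and 0.0509 with a trended and robust variance), that of *Rps25* against control with a mean over probe sets of a gene (0.0577), that of *Mycn* between the knockouts with a trended and robust variance (0.0799), *Max* fell short of 1.5-fold after renewed quantile normalization (0.58), and the methods' t-test after Benjamini-Hochberg adjustment called none of the genes named as called (adjusted p of 0.0959 to 0.622). The cause was not tested. The replicate numbers did not pair the arrays, since same-numbered arrays correlated at -0.16 to 0.25 over 9 pairs in their deviations from the group means, and with the replicate number as a block 1 member was increased in the single knockout, none (0) was called for the double knockout against control, and 2 decreased in the double knockout against the single knockout (*Nop58*, adjusted p = 0.0180). *Mycn* was then called in the single knockout (adjusted p = 0.0302) and *Rps25* no longer in the double knockout against control (adjusted p = 0.0891).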
